A study of Mus musculus with 21 samples.

Results

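Nuclear genes named for subunits of the 5 complexes of mitochondrial oxidative phosphorylation were measured in the gastrocnemius of trained and untrained mice. They were taken from the deposited gene table by symbol (the Nduf, Sdh, Uqcr, Cyc1, Cox4 to Cox8 and Atp5 symbols), leaving out symbols that mark a pseudogene (-ps) or an opposite-strand transcript (os) and genes with a mean under 10 counts over the libraries. Of the 40853 genes in the table, 92 matched, 90 were left without pseudogene and opposite-strand symbols and 85 reached the count minimum. These were 37 genes of complex I (7 of its core and 30 listed as accessory by symbol), 4 of complex II, 9 of complex III, 18 of complex IV and 17 of complex V, with Ndufa4 and Ndufa4l2 placed in complex IV, where the Ndufa4 protein is now known to sit. Ndufb4c, counted with complex I because its symbol fits the pattern, is annotated in GENCODE vM39 as a transcribed processed pseudogene without a coding sequence, and the other 84 have one. The muscle sampled was the medial gastrocnemius belly of 21 female C57BL/6NJ mice that were 10 weeks old at the start. Each mouse gave 1 poly(A)-selected library, and each group held 7 mice. Active mice ran on a treadmill for 6 weeks in 5 sessions each week. A session was a slow warm-up and then a run at about 70% of maximal speed, which was lengthened over the first weeks. Activity Reduction mice followed the same program for 4 weeks and were then inactive for 2 weeks, and Inactive mice did not train. All groups performed maximal running tests, and tissue was taken 48 to 72 h after the last one, so the untrained mice had also run.

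The respiratory chain sits in the inner mitochondrial membrane. Complex I (NADH dehydrogenase) and complex II (succinate dehydrogenase, also an enzyme of the citric acid cycle) pass electrons to ubiquinone, complex III passes them on to cytochrome c and complex IV to oxygen, and complex V (ATP synthase) uses the proton gradient built by complexes I, III and IV. Most subunits are nuclear genes, a few are encoded in mitochondrial DNA for every complex except complex II, and endurance training is known for raising the content of these proteins in muscle.

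The libraries held 38482455 to 59785132 counts on genes, and the 85 genes took between 1.79% and 2.07% of them. Fast fibre markers (Myh4, Myh1 and 4 others) summed to at least 151313 CPM (counts scaled to a common library size with TMM) in every library, and slow fibre markers to far less. Transcripts of 20 genes mainly expressed in liver, such as Alb, divided the libraries into 8 with more of them (733.1 to 2075 CPM in sum) and 13 with fewer (155.1 to 329.1 CPM). The 8 were Active 1 to 5, Activity Reduction 1 and 2 and Inactive 1. Each comparison is therefore also given after adjustment for this division. Because the 8 are also the first in the sample order, liver transcripts and sample order cannot be told apart in it. The slow fibre markers, Myh7 among them, summed to between 1829 and 2362 CPM in the Inactive, 932.1 and 2260 CPM in the Active and 620.0 and 1990 CPM in the Activity Reduction group. All 21 libraries and 16129 genes entered 1 model (edgeR, quasi-likelihood). A gene was called at a Benjamini-Hochberg adjusted p under 0.05 together with a log2 fold change over 0.25 in either direction. All 85 genes passed the filter on low counts. In bulk RNA, fewer cells of a type and less RNA per cell cannot be told apart.

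Levels differed widely between the genes. Just under the count minimum were Ndufb4b (mean 8.48 counts) and Ndufs6b (4.14), followed by Ndufa11b (0.19), Cox7b2 (0.0952) and Cox8c (0.0), and just inside were Cox6b2 (11.2) and Ndufb4c (14.6). Levels between genes were compared as mean CPM per kb, with the length of all annotated exons and, added after the data were seen, with that of 1 reference transcript. Per kb of all exons, Cox6a2, the striated muscle form of a complex IV subunit, was highest (663.0), before Atp5b (529.6) and Atp5a1 (438.3), the catalytic beta and the alpha subunit of the F1 head of complex V. Per kb of reference transcript Atp5b (1272) and Atp5a1 (786.0) stood above Cox6a2 (666.9), so the order at the top depended on the length used.

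The redox, catalytic and other defining subunits lay on both sides of the median of the 85 genes, which was 134.2 CPM per kb of reference transcript. Per kb of reference transcript, the complex II flavoprotein Sdha reached 331.0 and its iron-sulfur partner Sdhb 98.13, the complex I flavin subunit Ndufv1 194.6, cytochrome c1 (Cyc1) 192.9, the Rieske protein gene Uqcrfs1 147.1 and the complex IV subunit Cox5a 323.6 CPM. Ndufs1, which carries iron-sulfur clusters of complex I, was at 83.45. Per kb of all exons, the highest gene was Ndufb10 (138.1) in complex I and Uqcrb (214.7) in complex III, both accessory subunits, and the lowest was Sdhb (47.41) in complex II, Uqcr11 (24.22) in complex III and Atp5md (11.33) in complex V. The 5 lowest genes of all were the same with either length. Per kb of reference transcript these were Ndufa4l2 (4.153), Cox7a1 (3.007), Cox4i2 (1.352), Ndufb4c (0.7394) and Cox6b2 (0.3683). Cox4i2 and Cox6b2 are known as forms of lung and testis.

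**Figure D1:**
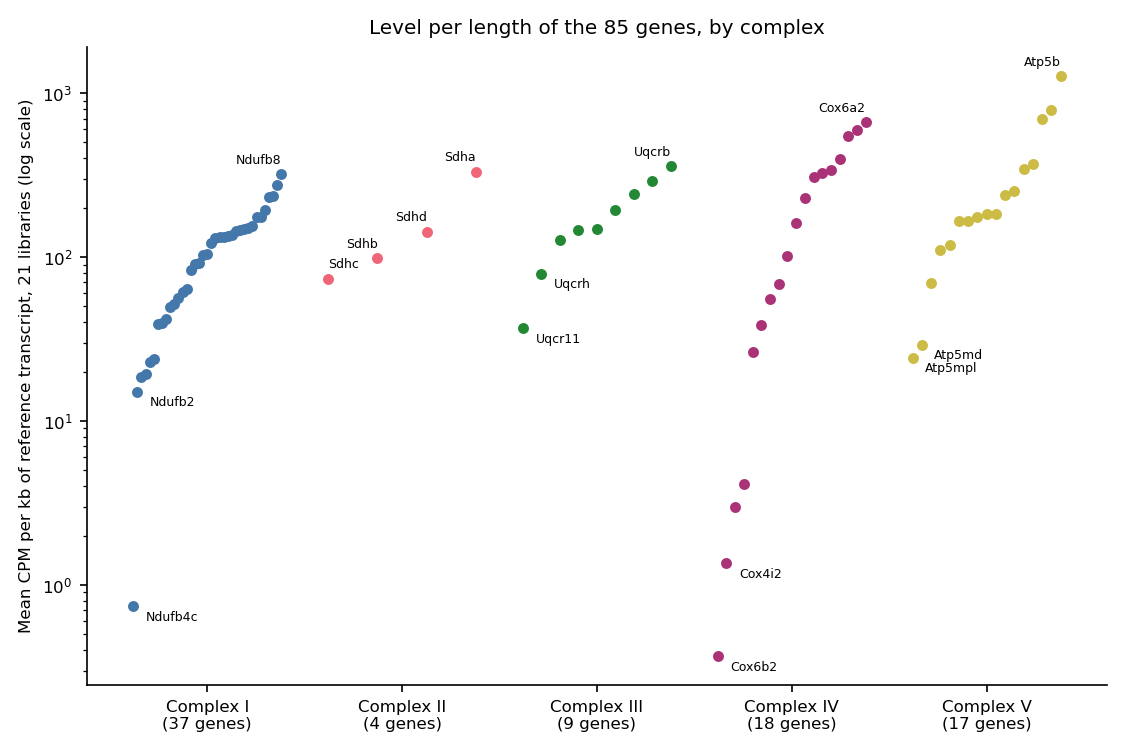
Mean CPM per kb of reference transcript over 21 libraries (log scale) of each of the 85 genes, ordered within its complex, with the highest and lowest genes named. Atp5b is highest at 1272 and Cox6b2 lowest at 0.3683 CPM per kb, and complexes II and III hold no gene under 36.72.

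Complex IV has subunits with a widely expressed form and a form of heart and skeletal muscle, and 3 such pairs were compared. Their coding sequences (GRCm39, GENCODE vM39, stop codon left out, and for Cox6a1 only the last 300 of 333 bases) are shown because reads must be told apart between the forms of a pair. Capitals mark the longest run of bases that is identical in both. Cox6a1 lies on chromosome 5 from 115483701 to 115487050 and Cox6a2 on chromosome 7 from 127804607 to 127805559, both on the minus strand, with 59.0% identity over the aligned coding bases and a longest shared run of 12 bases.
Cox6a1: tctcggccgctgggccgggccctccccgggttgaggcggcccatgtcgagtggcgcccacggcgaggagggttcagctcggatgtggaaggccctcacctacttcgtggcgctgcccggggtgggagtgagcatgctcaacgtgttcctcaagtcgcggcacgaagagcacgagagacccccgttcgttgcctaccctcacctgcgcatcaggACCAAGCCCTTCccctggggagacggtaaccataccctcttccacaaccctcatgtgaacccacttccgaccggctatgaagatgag
Cox6a2: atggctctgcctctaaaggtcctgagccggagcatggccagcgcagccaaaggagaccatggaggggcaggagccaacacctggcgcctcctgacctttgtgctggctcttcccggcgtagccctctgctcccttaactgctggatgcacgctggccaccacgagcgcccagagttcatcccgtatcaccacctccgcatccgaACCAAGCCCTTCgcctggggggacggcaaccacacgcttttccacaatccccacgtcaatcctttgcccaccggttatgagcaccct
Cox7a1 lies on chromosome 7 from 29883569 to 29885503 (plus strand) and Cox7a2 on chromosome 9 from 79653049 to 79667162 (minus strand), with 62.6% identity and a longest shared run of 12 bases.
Cox7a1: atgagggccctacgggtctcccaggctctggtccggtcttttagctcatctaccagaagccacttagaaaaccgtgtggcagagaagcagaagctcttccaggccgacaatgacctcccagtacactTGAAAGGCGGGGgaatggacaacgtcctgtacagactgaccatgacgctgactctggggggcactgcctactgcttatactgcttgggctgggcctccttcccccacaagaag
Cox7a2: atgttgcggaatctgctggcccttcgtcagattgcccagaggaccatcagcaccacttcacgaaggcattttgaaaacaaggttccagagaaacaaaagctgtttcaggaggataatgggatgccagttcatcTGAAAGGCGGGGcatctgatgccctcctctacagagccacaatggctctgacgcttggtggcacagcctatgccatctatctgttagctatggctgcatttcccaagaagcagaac
Cox8a lies on chromosome 19 from 7192515 to 7194997 and Cox8b on chromosome 7 from 140477069 to 140480359, both on the minus strand, with 56.9% identity and a longest shared run of 10 bases.
Cox8a: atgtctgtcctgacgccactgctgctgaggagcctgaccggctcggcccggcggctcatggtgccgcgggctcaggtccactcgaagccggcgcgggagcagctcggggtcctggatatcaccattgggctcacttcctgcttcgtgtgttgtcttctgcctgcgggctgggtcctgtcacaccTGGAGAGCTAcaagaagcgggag
Cox8b: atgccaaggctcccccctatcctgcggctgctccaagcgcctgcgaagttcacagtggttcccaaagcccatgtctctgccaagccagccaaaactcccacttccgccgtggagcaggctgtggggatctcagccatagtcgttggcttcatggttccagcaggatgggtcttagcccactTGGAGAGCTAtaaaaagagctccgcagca

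By these counts, the muscle form was the major one for subunits 6a and 8, and the widely expressed form for subunit 7a. Cox6a2 had 393.3, 443.9 and 493.3 CPM (lowest, median and highest) in the Active, 398.9, 449.8 and 492.4 in the Inactive and 376.5, 473.2 and 549.1 in the Activity Reduction group. Cox6a1 had medians of 21.55, 20.37 and 21.77 CPM in the same groups. The ranges of the 2 genes did not overlap. Per length, Cox6a2 exceeded Cox6a1 by a median of 18.2 times (range 12.8 to 23.0) with reference transcripts and 22.6 times with all exons. Cox8b exceeded Cox8a by 2.6 times (1.69 to 3.26) and 3.77 times on these scales, but 57.3% of the reference transcript of Cox8b overlaps exons of Psmd13 on the opposite strand. For subunit 7a the order was the other way, with Cox7a2 above Cox7a1 by 35.1 times (24.3 to 51.0) and 4.92 times. Cox7a1 had only 66.5 counts on average and between 0.8387 and 1.917 CPM in single libraries, although it is known as the muscle form. The gene model used for Cox7a1 in the authors' counting could not be checked, so its level and the order for subunit 7a are uncertain. No near-identical copy of Cox7a1 was found in the genome, and a noncoding gene on the opposite strand that is not in the table, Gm53356, covers 22.7% of its transcript. Cox4i1 made up at least 99.2% of the Cox4i1 and Cox4i2 level with either length.

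The shares of the forms lay close together in the 3 groups. Cox6a1 made up a median of 5.21% of the 6a pair in the Inactive, 5.91% in the Active and 5.19% in the Activity Reduction group, and Cox8a made up 25.1%, 29.6% and 26.2% of its pair, both per kb of reference transcript. Cox8a itself had 12.35, 13.88 and 14.81 CPM (lowest, median and highest) in the Inactive and 13.35, 15.79 and 17.46 CPM in the Active group. These ranges overlapped, and the log2 fold change was 0.15 (standard error 0.0677, unadjusted p = 0.0339 and adjusted p = 0.426, edgeR quasi-likelihood test, Benjamini-Hochberg adjusted). For Cox6a2, Cox7a1 and Cox8b the 3 comparisons gave adjusted p-values between 0.551 and 0.984 from this test. The interval of Cox7a1 was wide, from -0.07 to 0.74 on the log2 scale for Activity Reduction against Inactive.

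**Figure D2:**
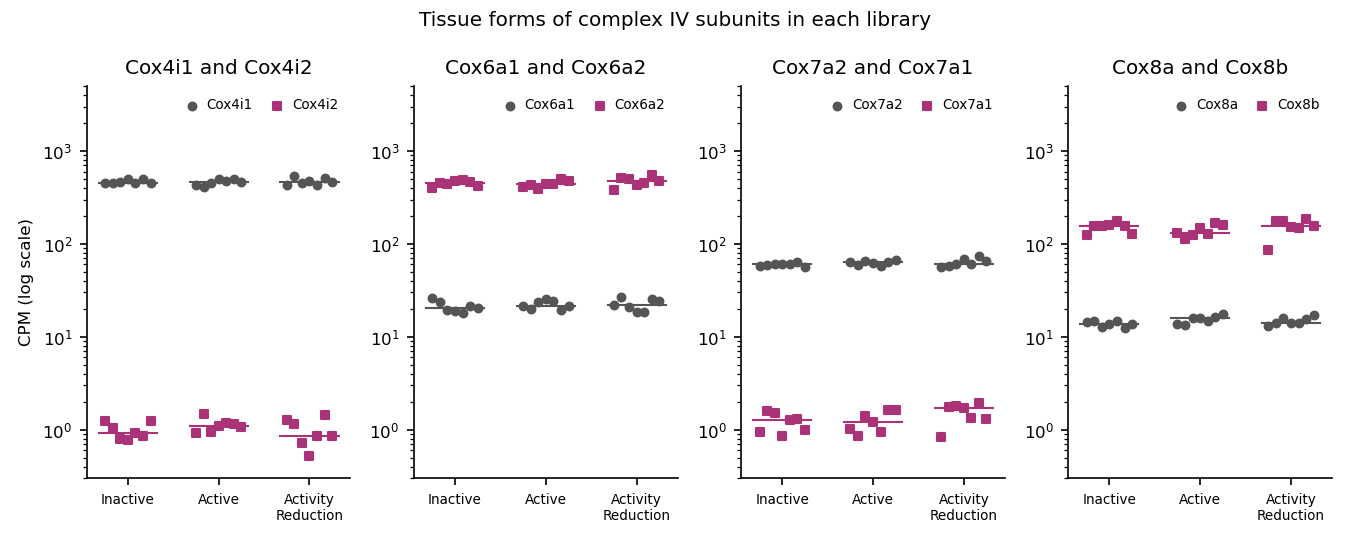
CPM (log scale) of the forms of complex IV subunits 4, 6a, 7a and 8 in each library, by group, with lines at the group medians. Cox6a2 and Cox8b lie above Cox6a1 and Cox8a in every library, while Cox7a1 and Cox4i2 lie near 1 CPM, far under Cox7a2 and Cox4i1.

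Whether 6 weeks of training changed the nuclear respiratory genes was tested in the Active against the Inactive group. None of the 85 genes passed the thresholds (0 of 16129 genes tested passed, 0.0%), and the smallest adjusted p-value among them was 0.225 (edgeR quasi-likelihood test, Benjamini-Hochberg adjusted). Their median log2 fold change was -0.0014 (median of all genes 0.0052), with 39 higher and 46 lower in the Active group (51.6% of all genes were higher). At an unadjusted p-value under 0.05, 1 gene was higher and 1 lower, against 6.18% and 4.69% of all genes tested. DESeq2, on 3 groups or on the groups compared only, also called 0 of the 85 genes in each comparison. Over all genes, the 3-group fit called 0.216% for Active against Inactive, 0.0732% for Activity Reduction against Inactive and 0.401% for Activity Reduction against Active, and the fits on the groups compared called 0.278%, 0.156% and 0.503%. The median half-width of a 95% interval was 0.121 on the log2 scale, and for 71 of the 85 genes the whole interval lay inside -0.25 to 0.25.

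The gene with the lower unadjusted p was Cox7a2l, whose product is studied as a factor of supercomplexes of complexes III and IV. Its function in this mouse strain was not tested. Cox7a2l had 75.33, 78.55 and 86.56 CPM (lowest, median and highest) in the Inactive and 68.29, 71.77 and 76.35 CPM in the Active group. The ranges overlapped only between 75.33 and 76.35 CPM. Its log2 fold change was -0.13 (standard error 0.0366, unadjusted p = 0.00163, adjusted p = 0.225, edgeR quasi-likelihood test). DESeq2 fitted on these 2 groups gave an adjusted p of 0.0475 with a fold change under the threshold, and over the alternatives the adjusted p ranged from 0.0475 to 0.776. Cox7a2l lies on chromosome 17 from 83765970 to 83824759 on the minus strand, has a copy at 97.9% identity elsewhere in the genome, and 29.6% of its reference transcript overlaps a noncoding gene on the opposite strand, so its counts are uncertain. The accessory complex I genes Ndufa1 (log2 fold change -0.16, adjusted p = 0.517) and Ndufc1 (-0.11, 0.547) were next among the lower genes in this edgeR test. On the higher side, Ndufa9 and Ndufb5, also accessory subunits of complex I, followed Cox8a with log2 fold changes of 0.04 and 0.07 and adjusted p-values of 0.55 and 0.555. Catalytic subunits were close to equal in both groups. Sdha had a mean of 1022 CPM in each, and Atp5b had 2477 CPM in the Active and 2420 CPM in the Inactive group (log2 fold change 0.03, 95% interval -0.03 to 0.10).

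After adjustment for the liver division, the median log2 fold change of the 85 genes in this comparison was 0.06 instead of -0.0014. Then 74 genes were higher and 11 lower, and 14 higher and 1 lower at an unadjusted p under 0.05 (4.24% and 4.27% of all genes), with 0 past the thresholds and a smallest adjusted p of 0.387 (edgeR quasi-likelihood test). In only the 13 libraries with fewer liver transcripts, where the Active group keeps 2 mice, the median was 0.08, with 80 genes higher and 5 lower, and 5 higher and 1 lower at an unadjusted p under 0.05 (3.02% and 3.06% of all genes). The 5 Active libraries with more liver transcripts had 18491 to 19716 CPM over the 85 genes, and the other 2 had 20240 and 20487. The part of liver transcripts in this difference was not tested.

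Activity reduction was compared with the Inactive group next. Again 0 of the 85 genes passed the thresholds (2 of 16129 genes tested passed, 0.0124%). The smallest adjusted p among the 85 was 0.45 (edgeR quasi-likelihood test, Benjamini-Hochberg adjusted). The median log2 fold change was 0.06 (all genes 0.0057), and 69 of 85 genes (81.2%) were higher in the Activity Reduction group, against 52.2% of all genes tested. At an unadjusted p under 0.05, 5 genes were higher and 0 lower, where 4.19% and 3.54% of all genes were. Ndufa11, an accessory subunit in the membrane arm of complex I, had 54.78, 59.07 and 66.22 CPM in the Inactive and 60.37, 67.31 and 75.29 CPM in the Activity Reduction group (lowest, median and highest). Its log2 fold change was 0.17 (standard error 0.0585, unadjusted p = 0.00746). Cyc1, the gene of cytochrome c1, had 268.7, 277.0 and 303.5 CPM in the Inactive and 278.2, 303.9 and 361.4 CPM in the Activity Reduction group, and its log2 fold change was 0.14 (standard error 0.0496). Both ranges overlapped, and the adjusted p-values were 0.45 and 0.484 from edgeR quasi-likelihood test. Ndufs3, a core subunit of complex I, followed with 0.09 (adjusted p = 0.506), and Cox7a2l, Sdhb and Uqcrc2 had the smallest p-values among the lower genes, with log2 fold changes of -0.07, -0.05 and -0.02 and adjusted p-values of 0.672, 0.832 and 0.919 in the same test. Of the 7 slow fibre markers, 7 were lower in the Activity Reduction group, 4 of them at an unadjusted p under 0.05, with a median log2 fold change of -0.59. With Myh7 as a covariate the median of the 85 genes was 0.09. The part of fibre types in this comparison was not tested further.

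The Activity Reduction and Active groups, both trained, differed by the last 2 weeks. This comparison shares its mice with the other 2, so the values are set side by side and are not independent. Of the 85 genes 0 passed the thresholds (0 of all genes tested, 0.0%), with a smallest adjusted p of 0.2 (edgeR quasi-likelihood test, Benjamini-Hochberg adjusted). The median log2 fold change was 0.06 (all genes -0.00065), and 74 of 85 genes (87.1%) were higher in the Activity Reduction group, against 49.8% of all genes. At an unadjusted p under 0.05, 8 genes were higher and 1 lower, against 6.89% and 6.44% of all genes. Ndufa12, an accessory subunit of complex I, had the smallest p, with 157.5, 182.0 and 194.9 CPM in the Active and 170.7, 195.6 and 234.8 CPM in the Activity Reduction group (lowest, median and highest). The groups overlapped, and the log2 fold change was 0.17 (standard error 0.0582, unadjusted p = 0.00714, adjusted p = 0.2). A copy of Ndufa12 at 99.5% identity lies elsewhere in the genome. The c-ring gene Atp5g2 (log2 fold change 0.15, adjusted p = 0.258 in the edgeR test), which has 2 copies in the genome, and Ndufa7 (0.16, 0.323) came next.

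Sdhb was the 1 lower gene at an unadjusted p under 0.05. It had 375.6, 403.4 and 445.4 CPM in the Active and 356.2, 391.2 and 399.8 CPM in the Activity Reduction group (lowest, median and highest). The log2 fold change was -0.09 (standard error 0.0412, adjusted p = 0.361, edgeR quasi-likelihood test). With Myh7, a slow fibre marker, as a covariate it was -0.05, and against the Inactive group it moved from -0.05 to 0.01. Uqcrc2, a core protein of complex III, and Ndufs1, the largest core subunit of complex I, followed among the lower genes with -0.05 (adjusted p = 0.502) and -0.06 (adjusted p = 0.451) in the edgeR test. Without overlap between the groups there were 0 of the 85 genes in all 3 comparisons, against 0.223%, 0.112% and 0.285% of all genes for Active against Inactive, Activity Reduction against Inactive and Activity Reduction against Active.

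**Figure D3:**
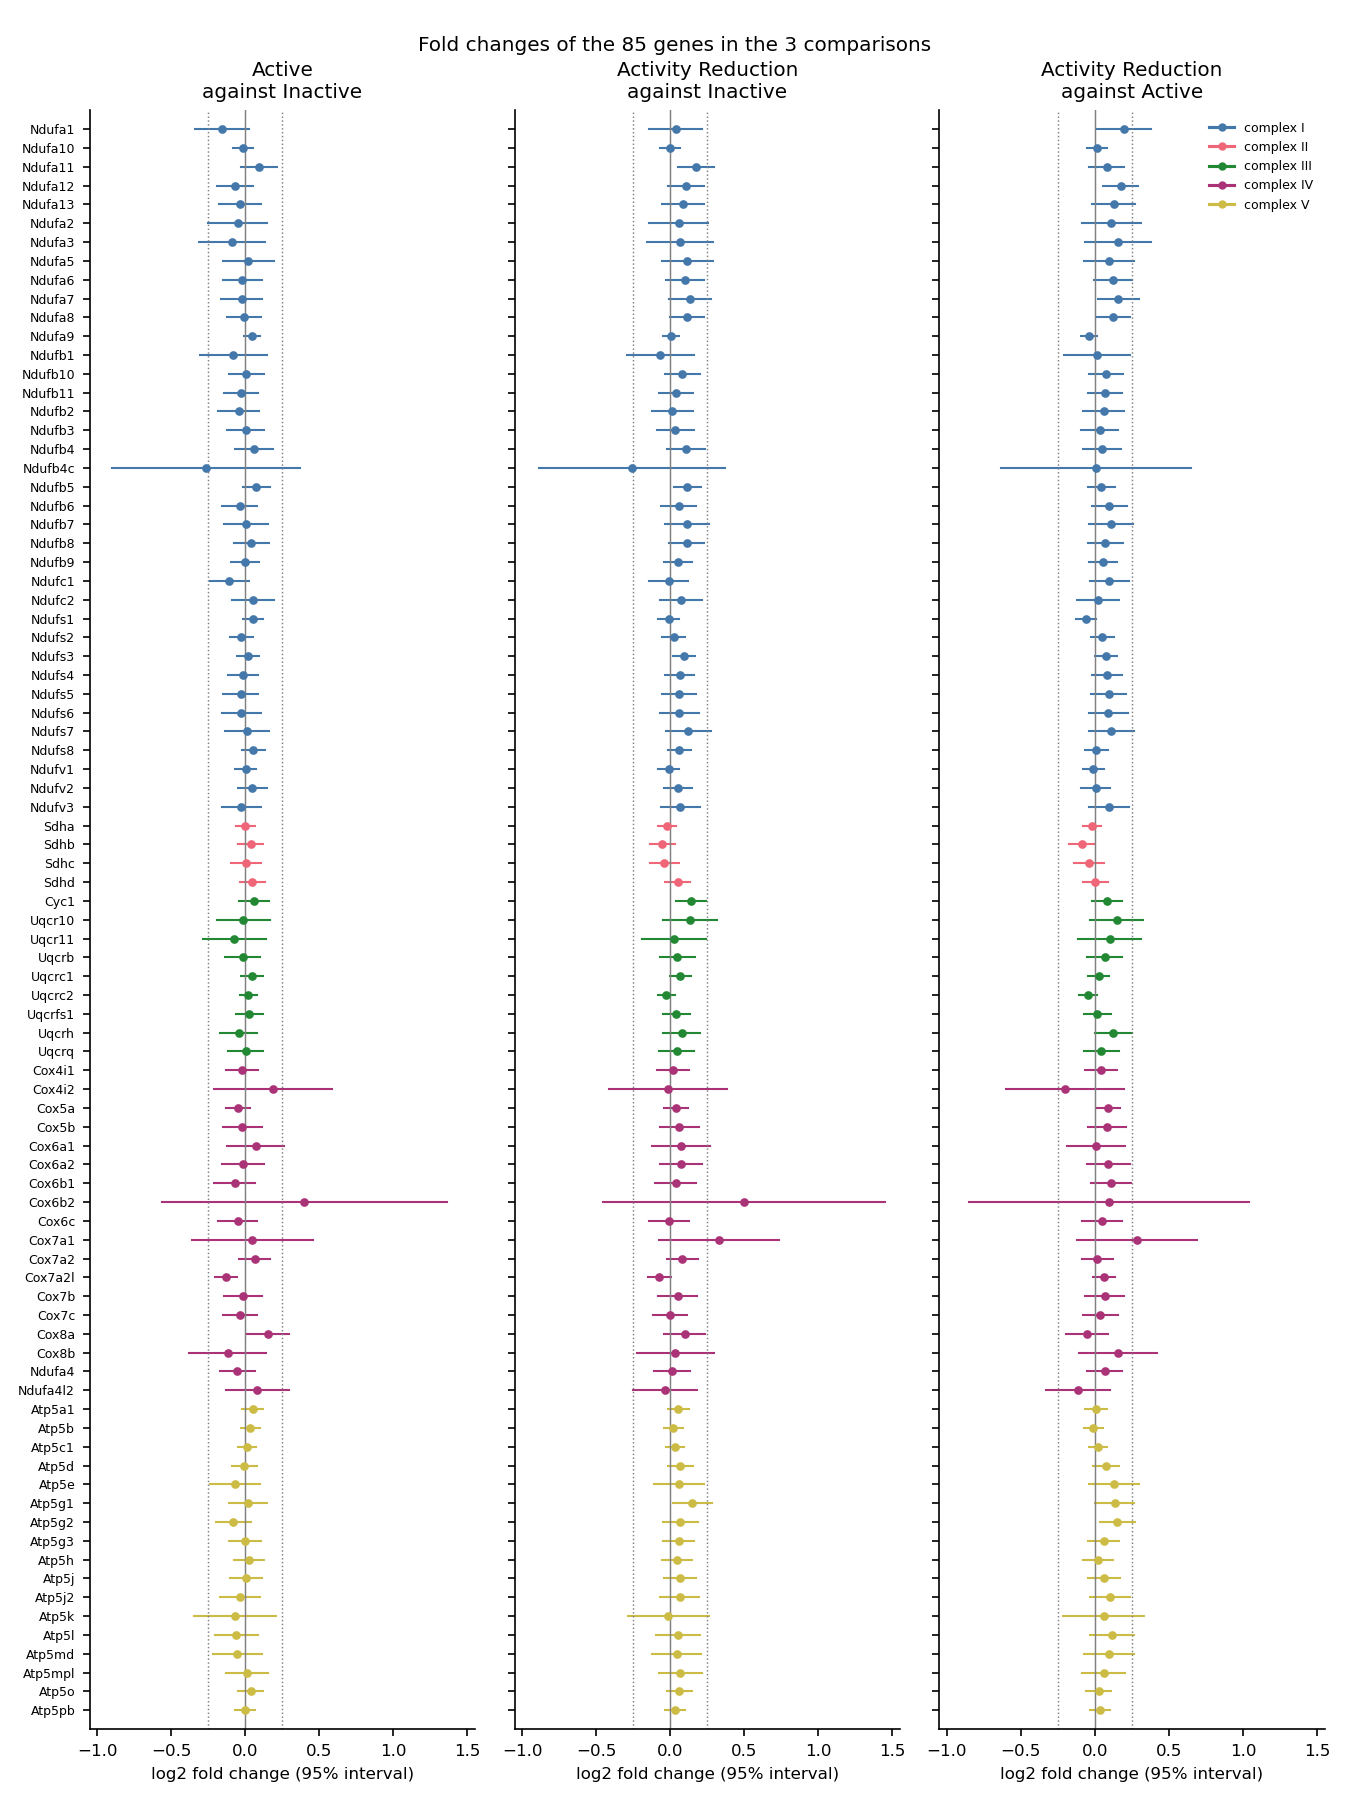
Log2 fold change with its 95% interval (edgeR) of each of the 85 genes in the 3 comparisons, coloured by complex, with dotted lines at -0.25 and 0.25. In the comparisons of the Activity Reduction group 69 and 74 of the 85 points lie right of 0, and the widest intervals belong to the rarest genes, Cox6b2 and Ndufb4c.

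The number of genes that differed in the comparisons of the Activity Reduction group changed when its lowest or its highest library was left out. Activity Reduction 1, also one of the 8 with more liver transcripts, had the lowest summed level of complexes I, III, IV and V of all libraries, and Activity Reduction 6 the highest. Without Activity Reduction 1, 34 genes were higher and 0 lower than in the Active group at an unadjusted p under 0.05, where 6.33% and 7.59% of all genes tested were, and 21 were higher and 1 lower than in the Inactive group (4.05% and 3.9% of all genes). Without Activity Reduction 6 these counts were 1 higher and 1 lower (5.0% and 5.52% of all genes), and 2 higher and 0 lower (2.54% and 2.77%). For Active against Inactive 1 gene was higher and 3 lower without the former (6.08% and 5.03% of all genes) and 1 higher and 1 lower without the latter (5.98% and 5.02%). The median log2 fold change against the Active group was 0.10 without the former and 0.03 without the latter, and in both cases 0 of the 85 genes passed the thresholds (smallest adjusted p 0.135 and 0.398, edgeR quasi-likelihood test). These libraries were chosen after their values were seen, as the lowest and the highest. The direction in which the median against the Active group moved was set by that choice. After adjustment for the liver division, the median against the Active group was 0.01, with 50 genes higher and 35 lower, and 1 higher and 3 lower at an unadjusted p under 0.05 (5.54% and 5.18% of all genes). In only the 13 libraries with fewer liver transcripts it was -0.0034, with 42 higher and 43 lower, and 0 higher and 1 lower at that p (2.02% and 2.39% of all genes). Against the Inactive group both medians were 0.07, with 14 higher and 1 lower after adjustment (4.54% and 3.71% of all genes) and 15 higher and 1 lower in the 13 libraries (4.09% and 3.8%).

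Most genes of complexes I, III, IV and V were on the higher side in the Activity Reduction group, and most of the 4 genes of complex II on the lower side, although none passed the thresholds. Of complex I, 31 of 37 genes were higher in Activity Reduction than in Inactive mice, of complex III 8 of 9, of complex IV 13 of 18 and of complex V 16 of 17, but of complex II 1 of 4. Their median log2 fold changes were 0.06, 0.05, 0.04, 0.06 and, for complex II, -0.03. Against the Active group the counts were 34 of 37, 8 of 9, 15 of 18, 16 of 17 and 1 of 4, with medians of 0.07, 0.07, 0.06, 0.06 and -0.03. The difference between complex II and the others was not tested. Within complex I, the 30 accessory genes had a median of 0.08 against the Active group and the 7 core genes 0.01. Within complex V the medians were 0.13 for the 3 c-ring genes, 0.10 for the 5 genes of the membrane part, 0.03 for the 4 stalk genes and 0.02 for the 5 genes of the F1 head. These counts and medians are without adjustment for the liver division. After that adjustment, 50 of the 85 genes were higher and 35 lower than in the Active group. The parts also differ in coding length. The core genes of complex I have 636 to 2181 coding bases, and most accessory genes fewer than 600. The c-ring and membrane-part genes of complex V have at most 438. Whether coding length bears on these medians was not tested.

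Summed over its genes, complex II took 1774, 1826 and 1925 CPM (lowest, median and highest) in the Inactive, 1732, 1856 and 1900 CPM in the Active and 1759, 1810 and 1837 CPM in the Activity Reduction group. The highest library had 1.11 times the lowest. Complex IV took 2486, 2734 and 2864, then 2434, 2633 and 2907, then 2321, 2815 and 3112 CPM in the same order, with a ratio of 1.34 between the highest and the lowest library. Complex I took medians of 4915, 4929 and 5155 CPM with a ratio of 1.26, complex III 2113, 2155 and 2196 CPM with 1.22, and complex V 7653, 7849 and 7954 CPM with 1.19. Activity Reduction 1 was the lowest and Activity Reduction 6 the highest library for these 4 complexes, but for complex II the lowest was Active 3 and the highest Inactive 4, with Activity Reduction 1 lowest within its group. All group ranges overlapped. Over libraries with more and with fewer liver transcripts the medians were 2496 and 2804 CPM for complex IV and 1837 and 1825 CPM for complex II.

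**Figure D4:**
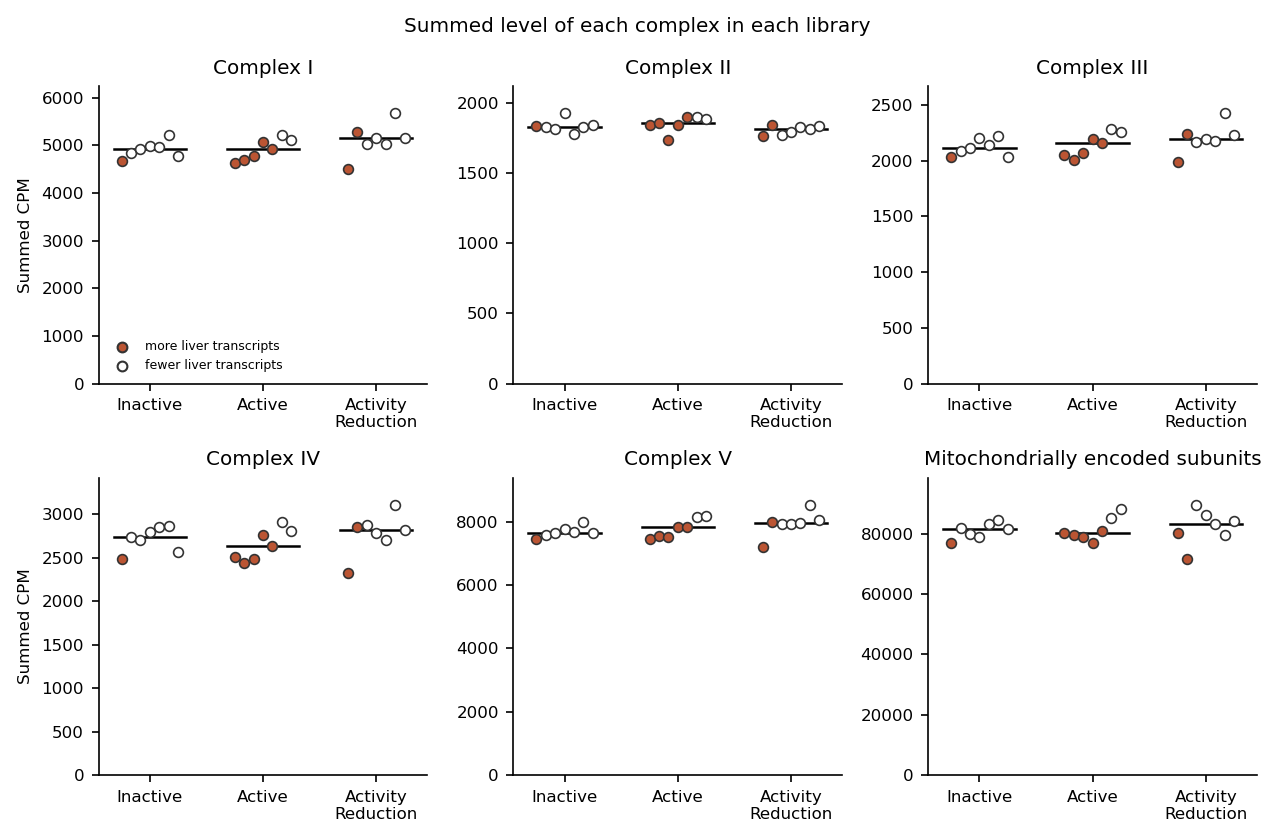
Summed CPM of the genes of each complex, and of the 13 mitochondrially encoded subunits, in each library by group, with group medians as lines and filled points for the 8 libraries with more liver transcripts. Complex II stays between 1732 and 1925 CPM, while complex IV runs from 2321 to 3112 CPM.

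Genes of complexes I, III, IV and V varied together from mouse to mouse. Group means were removed from log2 CPM (0.5 added) for the 80 genes with at least 500 counts on average, and Pearson correlations over the 21 libraries were taken as a description, since all genes share the same libraries and their scaling. The median r between the 76 such genes of complexes I, III, IV and V was 0.627, between them and the 4 genes of complex II 0.173, and within complex II 0.103. Between the 76 genes and 7009 other genes with as many counts it was 0.0125. Without Activity Reduction 1 the first of these values was 0.532, and in only the 13 libraries with fewer liver transcripts it was 0.544, with 0.0539 for complex II. Component 1 of a principal component analysis of the 80 genes carried 70.6% of their variance, 58.3% without Activity Reduction 1, and 78 of the 80 genes pointed the same way on it. Genes that stood apart, by their median r with complexes I, III, IV and V, were Cox7a2l (-0.346), the complex II membrane anchor Sdhc (-0.147), Cox6a1 (0.0162), Sdha (0.0905), Uqcrc2 (0.0991) and Ndufs1 (0.198). Sdhb, at 0.503, was the complex II gene closest to the rest. Over all libraries the median coefficient of variation was 5.29% for the genes of complex II and between 6.87% and 8.41% for the other complexes.

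**Figure D5:**
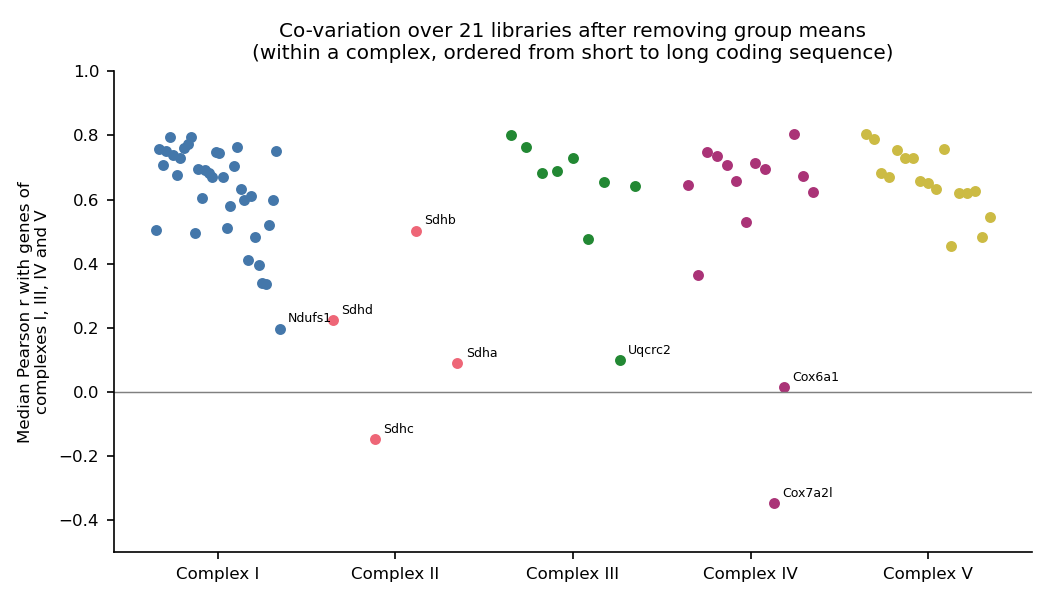
Median Pearson r of each of the 80 genes with the genes of complexes I, III, IV and V over 21 libraries, after removal of group means, by complex and ordered by coding length within it. Most genes of complexes I, III, IV and V lie above 0.45, and Cox7a2l is lowest at -0.346.

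Promoters of the genes were also examined, and a link between motifs and co-variation was not tested. RefSeq windows of 250 bases before the start (build GRCm38.p6) were at hand for 68 of the 85 genes, and were searched on both strands for 4 motifs. The palindromic motif of nuclear respiratory factor 1 (NRF1) was in 13 of 68 (19.1%), against 4.23% of 27025 genes with such a window. The YY1 motif AANATGGCG was in 3 genes (4.41%, against 1.29% of all). The ETS motif CCGGAAGT, bound by NRF2 (GABP), was in 3 genes (4.41%, against 3.23%). The estrogen-related receptor motif TCAAGGTCA was in 1 gene (1.47%, against 0.422%). Different motifs may overlap one another in a window. The shares of all genes were not matched for expression or base composition. The windows of 3 genes are shown as examples, with motif matches in capitals. They are the gene that holds motifs of more than 1 kind and 2 of the genes with the smallest p-values in the comparisons of the Activity Reduction group. These 2 were picked because they hold an NRF1 match. Others with small p-values there did not, as Ndufa12 and Ndufs3 held none of the 4 motifs and Ndufa7 only a YY1 match. Atp5h, a gene of the complex V stalk, has an NRF1 and an ETS match (chr11:115419920-115420169, minus strand), and Atp5g2 (chr15:102671048-102671297, minus strand) and Ndufa11 (chr17:56717512-56717761, plus strand) each have an NRF1 match that reads the same on both strands.
Atp5h: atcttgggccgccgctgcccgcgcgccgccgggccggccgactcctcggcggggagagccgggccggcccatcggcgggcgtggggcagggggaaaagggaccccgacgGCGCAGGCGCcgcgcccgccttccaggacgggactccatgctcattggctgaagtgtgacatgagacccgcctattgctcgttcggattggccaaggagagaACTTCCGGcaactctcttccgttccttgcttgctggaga
Atp5g2: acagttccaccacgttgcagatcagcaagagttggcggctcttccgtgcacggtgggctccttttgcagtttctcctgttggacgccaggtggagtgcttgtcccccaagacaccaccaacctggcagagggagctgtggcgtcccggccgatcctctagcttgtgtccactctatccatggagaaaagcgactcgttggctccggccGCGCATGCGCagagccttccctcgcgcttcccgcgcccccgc
Ndufa11: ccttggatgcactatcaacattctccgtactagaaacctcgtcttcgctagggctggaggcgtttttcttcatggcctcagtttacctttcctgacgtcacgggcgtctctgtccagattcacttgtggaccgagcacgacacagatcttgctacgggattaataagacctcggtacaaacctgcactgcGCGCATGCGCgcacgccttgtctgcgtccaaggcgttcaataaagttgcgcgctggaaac
Sdha and Sdhd of complex II (median r with complexes I, III, IV and V of 0.0905 and 0.225) and Cox6a1 (0.0162) also held the NRF1 motif. A match describes these letters only.

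Fold changes in the comparisons with the Active group varied with the length of the coding sequence. Across the 84 genes with a coding sequence, which are not independent replicates, the log2 fold change of Active against Inactive had a Spearman correlation of 0.449 with coding length, and 0.0505 across 13590 other genes. The 63 genes with under 600 coding bases had a median of -0.02 and the 21 longer ones 0.03. For Activity Reduction against Active the correlation was -0.429 (other genes -0.109), with medians of 0.08 and 0.01. After adjustment for the liver division the correlations were -0.168 and -0.066. For Activity Reduction against Inactive it was -0.0467 without and -0.178 with the adjustment.

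Genes that serve the chain without being nuclear subunits were taken from 4 lists, and 0 of them passed the thresholds in any comparison. Of 47 assembly factors 45 were tested, with medians of -0.02 for Active against Inactive, 0.02 for Activity Reduction against Inactive and 0.04 for Activity Reduction against Active. At an unadjusted p under 0.05 there were 0 higher and 2 lower, 3 higher and 1 lower, and 5 higher and 0 lower. Of all genes tested, 6.18% were higher and 4.69% lower, 4.19% and 3.54%, and 6.89% and 6.44% at this p in the same order, which is also the background of the lists that follow. Coa6, a copper chaperone of complex IV assembly, had the smallest p of these, with a log2 fold change of 0.19 against the Active group (adjusted p = 0.143, edgeR quasi-likelihood test). The 13 mitochondrially encoded subunits took 71503 to 89591 CPM in sum, with medians of -0.03, 0.01 and 0.06 in the same order, with 0 higher and 1 lower, 0, and 0 at this p, although poly(A) selection may not recover all of them equally. COX3 had the smallest p, at a log2 fold change of -0.30 for Active against Inactive (adjusted p = 0.431 in the edgeR test). Among 14 regulators, including the coactivator Ppargc1a and Tfam, which maintains mitochondrial DNA, the medians were -0.02, -0.0053 and -0.0025, with 0 higher and 1 lower, 2 higher and 1 lower, and 2 higher and 2 lower at an unadjusted p under 0.05. Esrrg, the estrogen-related receptor gamma, had a log2 fold change of -0.45 in Activity Reduction against Inactive (adjusted p = 0.134 in the same test), and Polrmt, the mitochondrial RNA polymerase, 0.18 against Active (adjusted p = 0.143). Among 14 carriers and partners of the chain the medians were -0.03, 0.01 and 0.02, and at an unadjusted p under 0.05 there were 0, then 1 higher, then 2 higher and 1 lower. Slc25a4, the muscle ADP/ATP carrier, had 0.11 both against Inactive and against Active (adjusted p = 0.484 and 0.221, edgeR). Atpif1, the inhibitor of complex V, whose symbol is outside the pattern, had medians of 9.726 CPM in the Inactive, 10.2 in the Active and 9.032 in the Activity Reduction group.

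Counts of several genes could be shared with other loci. Exons of 32 of the 85 genes overlap a gene of the table on the opposite strand, Ndufa13 also overlaps Yjefn3 on its own strand by 15 bases, and whether reads were counted by strand is not given in the sources used here. For 22 genes the genome holds a copy of at least 95% identity over at least 80% of the coding sequence. The 39 genes with neither had medians of 0.0036, 0.06 and 0.06 in the 3 comparisons.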

How the data were processed

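RNA-seq counts of 21 libraries (7 mice per group) were used. The authors used fastp for trimming, RNA STAR for alignment to GRCm39 and featureCounts for counting, and the deposited values are raw counts per gene, without normalization. A table whose name says normalized was identical to it and was not used. Versions and the strand setting are not given in the sources used here. Libraries held 38482455 to 59785132 counts.

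Counts were tested with edgeR 4.0.16 (R 4.3.3), with TMM, filterByExpr, glmQLFit and glmQLFTest in 1 model of the 3 groups, and Benjamini-Hochberg adjustment over 16129 genes. The thresholds (adjusted p under 0.05 and fold change over 0.25) are those of the study's methods, with the fold change taken on the log2 scale here. The methods give no scale, and elsewhere the study words its limit as a percent change. DESeq2 (the tool of the authors, here version 1.42.0), another normalization, other filters, a replicate block, the liver division, Myh7 and left-out libraries were alternatives. Intervals are 95% intervals from the edgeR standard error. The code was tested on simulated data. Replicate numbers were not taken to pair the mice. P-values measure the spread between mice.

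CPM used TMM library sizes. Reference transcripts (GENCODE vM39) were CCDS forms, or Ensembl canonical where there was none. Copies were searched with BLAST 2.17.0. Named genes were, in each comparison, the 3 higher and the 3 lower genes with the smallest p, the complex IV isoform pairs, defining subunits with the inhibitor Atpif1, and the highest and lowest gene per length of each complex. The genes, lists and tests were chosen with earlier results of these data known.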

Additional observations from a re-analysis of the deposited data

Results flagged for a closer look

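Some single libraries lay far from the other 6 of their group, by a gap test on 120 groups of values that chance alone flags in about 5% of groups. There were 9 such values. Activity Reduction 1 was low for Ndufa1 (20.43 CPM, next 28.51), Cox8b (85.97 CPM, next 146.4) and Atp5a1 (1757 CPM, next 1964), and Activity Reduction 6 was high for Ndufb5 (176.2 CPM, next 157.3). Active 1 was low for Ndufs3 (192.6 CPM, next 203.1), and Inactive 7 was low for Uqcrfs1 (271.8 CPM, next 310.5). Ndufb4c was high in Inactive 1 (0.433 CPM, next 0.339), a value of few counts. The summed level of complex II was high in Inactive 4 (1925 CPM, next 1838) and low in Active 3 (1732 CPM, next 1838). The cause of these values was not tested.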

How the results depend on the processing

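Under every alternative run (DESeq2 on 3 or on 2 groups, another normalization, no filter, a mean of at least 10 counts, the replicate block, the liver division, Myh7, left-out libraries), 0 of the 85 genes passed the thresholds in the 3 comparisons. The number at an unadjusted p under 0.05 moved more. Shares of all genes are in brackets. For Active against Inactive it was 2 (10.9%), and 4 with DESeq2 on 2 groups (7.81%). It was 15 after adjustment for the liver division (8.51%) and 6 in libraries with fewer liver transcripts (6.07%). For Activity Reduction against Inactive it was 5 (7.73%), and 15 (8.25%) and 16 (7.89%) under the liver settings. For Activity Reduction against Active it was 9 (13.3%), and 5 with DESeq2 on 2 groups (8.25%). Under the liver settings it was 4 (10.7%) and 1 (4.41%). Leaving out Activity Reduction 1 or 6, chosen after the data were seen, gave 2 to 4, 2 to 22 and 2 to 34 genes in these comparisons. The shares of all genes in these fits are given above by direction. Other libraries were not left out. With Myh7 as a covariate Sdhb moved from -0.05 to 0.0062 (log2, Activity Reduction against Inactive). The median level per length was 47.41 CPM per kb of all exons and 134.2 per kb of reference transcript. The cause of these differences was not tested.

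The replicate numbers were not taken to pair the mice. Same-numbered libraries correlated between -0.2224 and 0.4711 (median 0.01217, 7 of 21 pairs over 0.1), and 3 of 21 libraries correlated best with their own number. Such correlations cannot exclude a pairing. With the replicate block the counts at an unadjusted p under 0.05 were 3, 12 and 12 (12.6%, 7.63% and 14.6% of all genes). Intervals reached beyond 0.25 in either direction for 14, 18 and 24 of the 85 genes, rare ones such as Cox6b2 (11.2 counts on average) and well counted ones such as Cox8b among them.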
